A study of Mus musculus with 13 samples.

Results

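The genes described here are 59 mouse genes of mitosis, the kinetochore and cytokinesis, chosen by name: every probe of the arrays whose platform annotation gives 1 of these symbols was taken. Of the 59 genes, 55 had a named probe (105 probes), and 46 had a probe that passed the detection filter and were tested, among 11927 tested genes in all. The samples were high-grade gliomas that arose in 2 mouse models and control brain tissue, profiled on 13 single-colour Illumina BeadChip arrays. In the first model (3 tumors, 3 controls) deletion of tumor suppressor genes was driven by Nestin-creERT2, and in the second (4 tumors, 3 controls) by NG2-creERTM. The design text counts 5 tumors of the second model, and 1 of them was not analysed here. CreERT2 and CreERTM are forms of Cre recombinase that become active on tamoxifen. The Nestin promoter is active in neural stem and progenitor cells and NG2 (Cspg4) marks oligodendrocyte progenitors and pericytes, so the models aim the deletion at different cells. The labels name neither the deleted genes, the genotype of the control mice, nor the age of the animals. Tumors were taken once the animals had neurological signs, and controls from the matching part of the brain in control mice. The labels call the tumors independent and the controls biological replicates, and p-values measure the spread between these samples.

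Mitosis is run by the kinase Cdk1 with its cyclin partners, whose activation by Cdc25 phosphatases starts chromosome condensation and spindle assembly. Kinetochores built on centromeres carry the spindle checkpoint, which holds back the anaphase-promoting complex until chromosomes are attached, after which separase cuts cohesin and the cell divides at the cleavage furrow. Most of these genes are transcribed mainly late in the cell cycle of dividing cells, and the adult brain is largely made of cells that no longer divide. In whole tissue, more dividing cells and more RNA of these genes per cell cannot be told apart.

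Genes of this kind often carry 2 short elements near their start: the cell cycle genes homology region (CHR), bound by the MuvB complex, and the CCAAT box, bound by NF-Y. RefSeq promoter windows of build GRCm38.p6, from 250 bases before to 50 after each gene's start, were at hand for 47 of the 59 genes. The CHR was searched as TTTGAA or TTCGAA and the CCAAT box as CCAAT, both on either strand, and 1 CHR match overlapped a CCAAT match. CHR letters stood in 36 of 47 mitosis genes (76.6%), against 21.7% of all 27025 genes of the table. A match that began within 60 bases before to 20 after the start was held by 24 of 47 (51.1%), against 5.52% of all genes. CCAAT letters stood in 34 of 47 (72.3%), against 41.1%, and both kinds together in 30 of 47 (63.8%), against 8.61%. Of the 9599 genes of the table that were tested on the arrays, 16.3% held CHR letters. These matches describe letters, not binding. The first 5 stretches below, 120 bases up to the start of each gene, show both elements in genes with large tumor changes: Cdk1, Top2a, Cdc20, Prc1 (its second listed start) and Kif22. The last 2, of Anln and Trip13, belong to genes that were not called higher in both models, and hold neither set of letters in this stretch. Both have CHR letters just after the start, outside the stretch shown. Other genes go the other way: 7 of the 47 held neither in any window. Among these were Birc5, Nusap1 and Ncaph, which were higher by 5.32, 5.23 and 4.93 log2 units in Nestin tumors. Cdc25b and Kif23, called in only 1 model each, held both, as did Ttk. For Kif23 that call rests on its brightest probe, while its other probes were higher in both models. Capitals mark TTTGAA or TTCGAA, the CCAAT box, or their reverse complements.
Cdk1, chr10:69352913-69353032, minus strand: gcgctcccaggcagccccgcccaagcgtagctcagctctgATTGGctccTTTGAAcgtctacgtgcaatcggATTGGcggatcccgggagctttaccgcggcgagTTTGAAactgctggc
Top2a, chr11:99024190-99024309, minus strand: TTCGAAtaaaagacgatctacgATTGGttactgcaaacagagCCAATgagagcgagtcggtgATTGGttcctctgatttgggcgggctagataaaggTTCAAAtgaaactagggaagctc
Cdc20, chr4:118437344-118437463, minus strand: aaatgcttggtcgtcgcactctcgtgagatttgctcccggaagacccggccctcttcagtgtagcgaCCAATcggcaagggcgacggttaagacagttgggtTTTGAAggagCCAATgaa
Prc1, chr7:80294356-80294475, plus strand: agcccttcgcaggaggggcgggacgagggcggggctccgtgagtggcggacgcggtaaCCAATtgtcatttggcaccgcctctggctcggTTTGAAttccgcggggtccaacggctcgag
Kif22, chr7:127042421-127042540, minus strand: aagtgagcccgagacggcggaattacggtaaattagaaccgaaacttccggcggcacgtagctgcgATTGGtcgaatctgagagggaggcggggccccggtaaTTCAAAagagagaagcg
Anln, chr9:22389207-22389326, minus strand: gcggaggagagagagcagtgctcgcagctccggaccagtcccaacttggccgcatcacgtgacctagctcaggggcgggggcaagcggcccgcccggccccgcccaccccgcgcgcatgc
Trip13, chr13:73937768-73937887, minus strand: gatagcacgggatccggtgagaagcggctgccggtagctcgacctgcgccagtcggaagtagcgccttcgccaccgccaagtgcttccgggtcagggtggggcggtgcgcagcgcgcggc

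**Figure D1:**
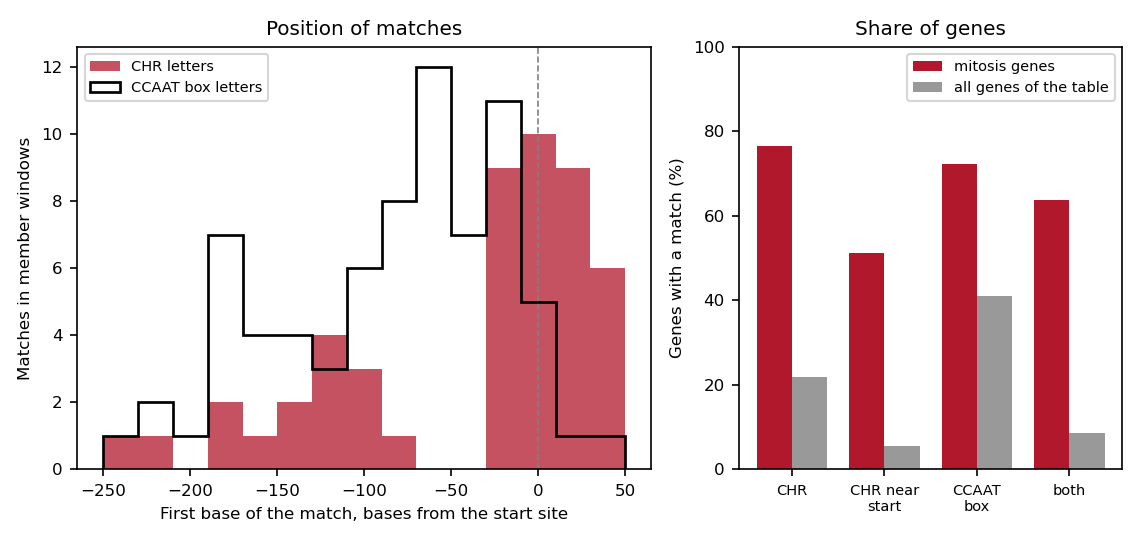
Motif letters in RefSeq promoter windows of mitosis genes. Left, number of matches (vertical axis) by distance of the first base from the start site in bases (horizontal axis), in the first window of each of the 47 genes, with CHR letters as filled bars and CCAAT letters as an outline; CHR matches stand densest around the start and CCAAT matches mostly before it. Right, percent of genes with CHR letters (76.6% of mitosis genes, against 21.7% of all genes), with CHR letters near the start (51.1% against 5.52%), with CCAAT letters (72.3% against 41.1%) and with both CHR and CCAAT letters (63.8% against 8.61%), with mitosis genes in red left of all genes of the table in grey.

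Across the 51 windows of the 47 genes there were 52 CHR matches, of which 25 began after the start and 26 within 60 bases before to 20 after it. Of 80 CCAAT matches, 77 began before the start and 56 of these within 120 bases of it. The windows listed for Ect2 overlap each other, as do those for Prc1, so sites that they share were counted once per window. Cdk1 had CHR letters 71 and 15 bases before its start, written as -71 and -15, and CCAAT letters at -80 and -48 between and beside them. A further CCAAT match of Cdk1 stood at -208.

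Of the 46 tested genes, 42 were higher in Nestin tumors than in Nestin controls by limma at an adjusted p below 0.05, where 24.4% of all tested genes were called higher. Only Anln was lower, where 21.9% of all genes were. In NG2 tumors 42 of 46 were higher than in NG2 controls, against 26.6% of all genes, and 0 were lower (24.1% of all genes), also at an unadjusted p below 0.05 and under every other setting tried. Of these, 40 genes were called higher in both models. The median change of the 46 genes was 3.45 log2 units in Nestin tumors and 3.74 in NG2 tumors, beside 0.06 and 0.09 over all genes. With genes undetected in controls set at their lower bound, explained with Cdk1, these medians were 3.17 and 3.15. Every tumor array stood above every control array for 42 genes in the Nestin comparison (31.1% of all genes) and below for 1 (27.8%), and in the NG2 comparison for 44 (27%) and 0 (24.3%).

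On single arrays the median level of the 46 genes was 9.5, 8.99 and 9.41 in Nestin tumors, against 5.22, 5.47 and 5.19 in Nestin controls, as background-corrected, quantile-normalized log2 intensity. In NG2 tumors it was 9.52, 9.46, 10.14 and 10.23, against 5.08, 5.53 and 5.19 in NG2 controls. The tumor and control arrays were far apart, while the median over all genes lay between 8.37 and 8.46 on every array. A level near 5 is close to the detection limit of the arrays, and the probes used were above background for 45 or 46 of the 46 genes on each tumor array and for 18 to 24 on each control array. No probe was above background on any Nestin control array for 20 genes, and on any NG2 control array for 19. A gene that passed the filter only through its tumor arrays had to differ, so the 23 genes detected on at least 3 of the 6 control arrays were also counted alone, a choice made after seeing the data. Of these 23, 20 were higher and 1 lower in Nestin tumors (23% and 24.1% of the 10846 genes that pass the same control filter), and 20 were higher and 0 lower in NG2 tumors (24.7% and 26.5%).

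**Figure D2:**
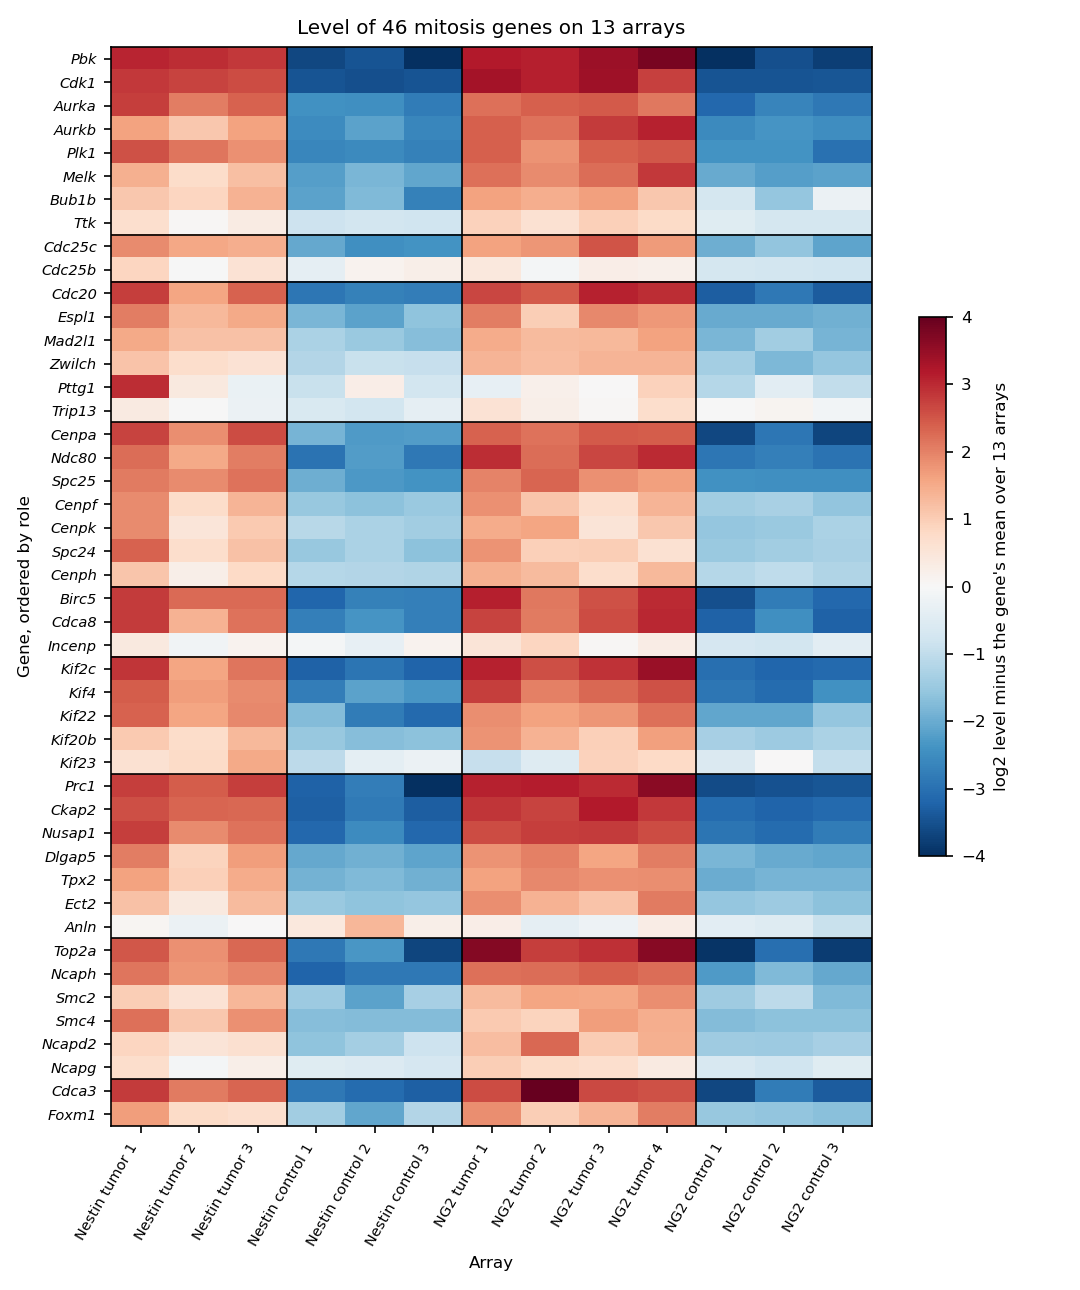
Levels of the 46 tested mitosis genes (rows, grouped by role) on the 13 arrays (columns, tumors left of their controls), as log2 level minus the gene's mean over all arrays. Red marks levels above and blue below that mean; tumor columns are red and control columns blue for nearly all genes, and Anln, Incenp, Trip13 and Cdc25b differ least.

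Facts of the arrays bear on all of these values. Raw median intensity was 175.7 to 209.1 in tumors and 116.9 to 142.1 in controls, with 43.46% to 47.52% of probes detected. The arrays lay on 3 slides: the first held both Nestin groups, the second all NG2 tumors with 2 NG2 controls, and the third 1 Nestin tumor with 1 control of each model. The median change of the 46 genes was 3.41 within the first slide and 3.68 within the third in the Nestin comparison, and 3.71 within the second in the NG2 comparison. Neuron markers (7 of 9 measured, Rbfox3 and Camk2a among them) were lower by limma for all 7 in both models, with summed levels of 5140 to 11900 in Nestin tumors, against 72400 to 73800 in Nestin controls, and of 1200 to 3000 in NG2 tumors, against 68000 to 77100 in NG2 controls. Oligodendrocyte progenitor markers (6 of 6 measured) summed to 10400 to 30300 in Nestin tumors, against 7940 to 13100 in their controls, and to 35700 to 50200 in NG2 tumors, against 9250 to 10300. Markers of astrocytes and neural stem cells (8 of 8 measured) summed to 40600 to 78200 in Nestin tumors, against 25100 to 26100 in controls, and to 33800 to 38900 in NG2 tumors, against 28500 to 29600 in controls. Their single changes were mixed: limma called 5 of 8 higher and 1 lower in Nestin tumors, and 3 higher and 2 lower in NG2 tumors. Aldh1l1 changed by -2.31 and -2.09 in Nestin and NG2 tumors, and Aqp4 by -1.62 in NG2 tumors. Microglia and macrophage markers (5 of 8 measured) summed to 5050 to 10800 in Nestin tumors, against 2100 to 2780, and to 3430 to 8620 in NG2 tumors, against 2170 to 2890. Single markers went both ways: by limma 2 of these 5 were higher and 0 lower in Nestin tumors. In NG2 tumors 1 was higher and 1 lower. Lyz2 rose most (3.25 and 2.86 in Nestin and NG2 tumors), while Csf1r (-0.74 and -0.93) and Cx3cr1 (-0.36 and -0.51) had negative changes. Endothelial markers (5 of 6 measured) summed to 3130 to 4900 in Nestin tumors, against 3250 to 3530, and to 3860 to 5130 in NG2 tumors, against 3240 to 3880. Of these 5, limma called 1 higher and 1 lower in Nestin tumors, and 1 higher and 2 lower in NG2 tumors. Erythroid markers (2 of 4 measured) summed to 1050 to 27500 in Nestin tumors, against 4410 to 7080, and to 814 to 4780 in NG2 tumors, against 5130 to 9370. Of 8 lymphocyte markers only Cd3e was measured, and it changed in neither model by the test. In each group every measured marker was detected on at least 1 array, save Nes in Nestin controls and Cd3e in NG2 tumors. The part of these cell types in the changes of the mitosis genes was not tested.

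All 8 tested mitotic kinases were higher in both models, by a median of 4.32 in Nestin tumors and 4.96 in NG2 tumors on the log2 scale (4.06 and 4.68 at the bounds). Counts by role, here and below, stand beside 24.4% of all genes called higher in Nestin tumors and 26.6% in NG2 tumors. Genes undetected in controls, here Cdk1, Aurkb, Ttk and Melk, passed the filter only through tumors and had to differ, which limits these counts. Pbk, a kinase active in dividing cells, had levels of 12.26, 12.16 and 12.03 in Nestin tumors, against 5.56, 5.74 and 5.19 in Nestin controls. In NG2 tumors it had 12.38, 12.32, 12.63 and 13, against 5.21, 5.69 and 5.44 in NG2 controls. The change of 6.65 ± 0.24 (SE, limma adjusted p = 9.19e-10) in Nestin tumors and 7.13 ± 0.22 (adjusted p = 1.92e-10) in NG2 tumors left no overlap between tumors and controls, and 4 of the 6 control arrays detected Pbk. Cdk1, the kinase that drives entry into mitosis, had 10.96, 10.85 and 10.75 in Nestin tumors, against 4.69, 4.61 and 4.7 in Nestin controls. Levels of Cdk1 were 11.47, 11.25, 11.53 and 10.87 in NG2 tumors, against 4.7, 4.68 and 4.73 in NG2 controls. No control array detected it, so the change is a bound, computed from the lowest level detected on each control array: at least 43.4-fold higher in Nestin tumors (adjusted p = 9.19e-10) and at least 59.9-fold higher in NG2 tumors (adjusted p = 1.92e-10). An adjusted p beside a bound, here and below, is that of the fitted difference from control levels near background. It does not test the bound. A dimmer probe of Cdk1 changed by 0.42 ± 0.23 in Nestin tumors (adjusted p = 0.161 among probes) and by 0.89 ± 0.22 in NG2 tumors (adjusted p = 0.00383).

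Plk1 and Aurka, which mature centrosomes and build the spindle poles, were higher by 4.79 ± 0.28 and 4.96 ± 0.25 in Nestin tumors; in NG2 tumors the changes were 4.84 ± 0.26 and 5.17 ± 0.23. Aurkb, the kinase of the chromosomal passenger complex, had 8.89, 8.36 and 8.9 in Nestin tumors, against 4.76, 5.16 and 4.67 in Nestin controls. Its NG2 tumors had 9.68, 9.45, 10.08 and 10.36, against 4.73, 4.94 and 4.8 in NG2 controls, so every NG2 tumor lay above every Nestin tumor. Undetected in controls, it was at least 9.86-fold higher in Nestin tumors (adjusted p = 2.12e-07) and at least 22.9-fold higher in NG2 tumors (adjusted p = 4.77e-09). Melk, a kinase made in proliferating progenitors, had 8.28, 7.6 and 8.05 in Nestin tumors, against 4.66, 5.02 and 4.77 in Nestin controls. Its levels were 9.05, 8.74, 9.1 and 9.68 in NG2 tumors, against 4.86, 4.67 and 4.71 in NG2 controls. The bounds are at least 5.9-fold higher in Nestin tumors and at least 13.6-fold higher in NG2 tumors. Ttk, the kinase at the head of the spindle checkpoint, was above background on no control array and had 6.04, 5.41 and 5.68 in Nestin tumors, against 4.53, 4.64 and 4.55 in Nestin controls. Its levels were 6.27, 5.96, 6.3 and 6.14 in NG2 tumors, against 4.87, 4.65 and 4.66 in NG2 controls, which gives at least 1.23-fold (adjusted p = 0.000284) and at least 1.73-fold (adjusted p = 1.54e-05) higher levels in Nestin and NG2 tumors.

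Of the cyclins and Cdc25 phosphatases only the phosphatases were tested. Cdc25c, which removes the inhibitory phosphates of Cdk1, had 9.17, 8.82 and 8.73 in Nestin tumors, against 5.21, 4.82 and 4.88 in Nestin controls. It had 8.87, 9.03, 9.79 and 8.96 in NG2 tumors, against 5.32, 5.68 and 5.16 in NG2 controls, a change of 3.78 ± 0.26, and was at least 11.3-fold higher in Nestin tumors. Cdc25b, which acts on the same sites earlier in the cycle, was detected on all arrays. Its levels were 7.73, 6.85 and 7.45 in Nestin tumors, against 6.52, 7.01 and 7.12 in Nestin controls, and the groups overlapped (0.46 ± 0.27, adjusted p = 0.181). Without Nestin tumor 2 the change was 0.7 and passed the threshold. In NG2 tumors Cdc25b had 7.31, 6.81, 7.14 and 7.09, all above the 6.16, 6.13 and 6.07 of NG2 controls (0.97 ± 0.25, adjusted p = 0.00531).

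Of 6 tested genes of the spindle checkpoint and anaphase trigger, 5 were higher in Nestin tumors and 4 in NG2 tumors. Cdc20, which activates the anaphase-promoting complex, had 12.23, 11.04 and 11.81 in Nestin tumors, against 6.55, 6.76 and 6.69 in Nestin controls. Cdc20 had 12.13, 11.91, 12.52 and 12.4 in NG2 tumors, against 6.15, 6.58 and 6.13 in NG2 controls. The changes were 5.03 ± 0.29 (adjusted p = 2.72e-08) and 5.95 ± 0.27 (adjusted p = 1.73e-09) in Nestin and NG2 tumors, and Nestin tumor 2 was the lowest of the 7 tumors. Espl1 (separase), Mad2l1 (a checkpoint protein that binds Cdc20) and Zwilch (a part of the complex that brings Mad2l1 to kinetochores) were higher in both models, Mad2l1 by 2.77 ± 0.21 in Nestin tumors and 3.1 ± 0.2 in NG2 tumors. Trip13, the ATPase that recycles Mad2l1, had 5.89, 5.49 and 5.3 in Nestin tumors, against 4.92, 4.8 and 5.16 in Nestin controls. It had 6.09, 5.75, 5.58 and 6.23 in NG2 tumors, against 5.5, 5.64 and 5.42 in NG2 controls, where the groups overlapped. Its call in Nestin tumors (0.6 ± 0.22, adjusted p = 0.0396, at least 1.1-fold) was lost on leaving out Nestin tumor 1, Nestin tumor 2, Nestin control 1 or Nestin control 2, with changes of 0.44 to 0.63. It was also lost with slide as a block (0.6, adjusted p = 0.0601), within the first slide (0.83, adjusted p = 0.0523), with cyclic loess (0.47, adjusted p = 0.0988) and with an offset of 50 (0.32, adjusted p = 0.0634). In NG2 tumors Trip13 had a change of 0.39 ± 0.21 (adjusted p = 0.131). Pttg1 (securin), the inhibitor of separase, had 8.88, 6.3 and 5.67 in Nestin tumors, against 5.04, 6.2 and 5.19 in Nestin controls. Pttg1 had 5.58, 6.12, 5.95 and 6.85 in NG2 tumors, against 4.78, 5.49 and 4.93 in NG2 controls. Nestin tumor 1 stood alone at the top, the Nestin groups overlapped and the NG2 groups did not, and the changes of 1.48 ± 0.64 in Nestin tumors (adjusted p = 0.0721) and 1.05 ± 0.59 in NG2 tumors (adjusted p = 0.156) did not pass. Pttg1 passed in the Nestin comparison without Nestin tumor 3 (2.12), and in the NG2 comparison without Nestin tumor 1 (1.05) or in a fit of the NG2 groups only (1.05, adjusted p = 0.0187).

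All 7 tested kinetochore and centromere genes were higher in both models, by a median of 2.89 in Nestin tumors and 2.66 in NG2 tumors (2.45 and 2.29 at the bounds). Only Cenpa was detected on control arrays. The others passed the filter only through tumors and had to differ, so their count says little. Cenpa, the histone that marks centromeres, had 13.57, 12.72 and 13.45 in Nestin tumors, against 9.01, 8.59 and 8.61 in Nestin controls. In NG2 tumors Cenpa had 13.2, 13.03, 13.31 and 13.28, against 7.21, 7.95 and 7.18 in NG2 controls, and the changes were 4.51 ± 0.26 (adjusted p = 3.01e-08) and 5.76 ± 0.24 (adjusted p = 1.15e-09). The tumor levels of both models overlapped, while every Nestin control lay above every NG2 control. Ndc80, which with Spc24 and Spc25 forms the complex that grips microtubules, had 9.79, 9.05 and 9.59 in Nestin tumors, against 4.59, 5.3 and 4.67 in Nestin controls. It had 10.5, 9.78, 10.21 and 10.54 in NG2 tumors, against 4.65, 4.81 and 4.6 in NG2 controls. Undetected in controls, Ndc80 was at least 16.7-fold higher in Nestin tumors and at least 29.6-fold higher in NG2 tumors. The bounds for its partners were at least 12.9-fold for Spc25 and at least 5.48-fold for Spc24 in Nestin tumors, and at least 12.3-fold and at least 4.55-fold in NG2 tumors. Cenph, of the inner kinetochore, was above background on no control array and had 6.84, 5.95 and 6.52 in Nestin tumors, against 4.6, 4.56 and 4.52 in Nestin controls. In NG2 tumors Cenph had 7.16, 7.0, 6.43 and 7.03, against 4.58, 4.71 and 4.53 in NG2 controls, so it was at least 2.04-fold higher in Nestin tumors and at least 2.9-fold higher in NG2 tumors. Cenpf and Cenpk were also undetected in every control array and higher in both models. A dimmer probe of Cenpf changed by 0.32 in Nestin tumors, where no tumor array detected it, and by 0.72 in NG2 tumors.

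Of the 3 tested genes of the chromosomal passenger complex, which corrects wrong attachments and guides cytokinesis, 2 were higher in Nestin tumors and 3 in NG2 tumors. Birc5 (survivin) had 11.34, 10.81 and 10.81 in Nestin tumors, against 5.36, 5.83 and 5.8 in Nestin controls. Birc5 had 11.66, 10.64, 11.1 and 11.53 in NG2 tumors, against 5.04, 5.73 and 5.39 in NG2 controls. It was higher by 5.32 ± 0.3 (adjusted p = 2.78e-08) in Nestin tumors and by 5.84 ± 0.28 (adjusted p = 3.23e-09) in NG2 tumors, and Cdca8 (borealin) by 4.73 ± 0.35 and 5.56 ± 0.32. Incenp, the scaffold of the complex, had 9.03, 8.47 and 8.77 in Nestin tumors, against 8.54, 8.3 and 8.78 in Nestin controls. Its levels were 9.13, 9.47, 8.67 and 8.93 in NG2 tumors, against 7.94, 7.9 and 8.19 in NG2 controls. The Nestin groups overlapped (0.22 ± 0.26, adjusted p = 0.518), and the NG2 groups did not (1.04 ± 0.24, adjusted p = 0.00252). The difference between these effects did not pass (-0.82 ± 0.35, adjusted p = 0.223), and scaling arrays to their median in place of quantile normalization made the Nestin change 0.76 and past the threshold. The same scaling brought Cdc25b (0.9) and Pttg1 (1.64) past the threshold in Nestin tumors, and Trip13 (0.53), Kif23 (1.14) and Anln (1.2) in NG2 tumors, so that 45 of 46 genes were then called higher in each model. Under this scaling 4427 and 4862 of all 11927 genes were called higher in Nestin and NG2 tumors. The median change of all genes was then 0.451 and 0.467.

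All 5 tested mitotic kinesins, motors that move along or shorten microtubules, were higher in Nestin tumors and 4 in NG2 tumors. Kif2c, which shortens microtubules at centromeres, had 10.8, 9.51 and 10.08 in Nestin tumors, against 4.69, 5.02 and 4.73 in Nestin controls. It had 11.02, 10.52, 10.83 and 11.37 in NG2 tumors, against 4.92, 4.77 and 4.81 in NG2 controls. Undetected in controls, it was at least 26.3-fold higher in Nestin tumors (adjusted p = 3.68e-08) and at least 47.2-fold higher in NG2 tumors (adjusted p = 3.23e-09). The chromosome-bound kinesins Kif4 and Kif22 were higher by 4.4 ± 0.3 and 4.49 ± 0.33 in Nestin tumors; in NG2 tumors the changes were 5.2 ± 0.28 and 3.76 ± 0.31. Kif20b was at least 3.61-fold higher in Nestin tumors and at least 4.97-fold higher in NG2 tumors.

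Kif23, the motor of the centralspindlin complex that marks the cleavage plane, gave different values by probe. On probe 3, the brightest of its 4 probes and the one used in the counts above, it had 10.02, 10.17 and 10.91 in Nestin tumors, against 8.36, 9.0 and 9.16 in Nestin controls. On that probe NG2 tumors had 8.47, 8.88, 10.31 and 10.2, against 8.83, 9.41 and 8.44 in NG2 controls. The Nestin groups stood apart (1.53 ± 0.47, adjusted p = 0.0154), and the call was lost without Nestin tumor 3 (1.26) or Nestin control 1 (1.29), while the NG2 groups overlapped (0.57 ± 0.44, adjusted p = 0.296). Probe 1 had 10.65, 10.14 and 10.55 in Nestin tumors, against 5.43, 6.59 and 5.58 in Nestin controls, and 11.02, 10.46, 10.52 and 10.43 in NG2 tumors, against 4.98, 5.01 and 5.3 in NG2 controls. On this probe the changes were 4.58 ± 0.31 (adjusted p = 1.17e-07 among 23904 probes) and 5.51 ± 0.29 (adjusted p = 5.85e-09) in Nestin and NG2 tumors, and on probe 4 they were 4.02 ± 0.28 and 4.68 ± 0.26. Probe 2, the dimmest, changed by 0.97 ± 0.22 and 1.22 ± 0.21. With the mean of all 4 probes Kif23 passed in NG2 tumors too, with a change of 3.0. Of 22 tested genes with several passing probes, 10 had changes that differed by over 1 log2 unit between probes in either model, and 1, Cdc25b, had opposite signs in Nestin tumors (-0.16 on its dimmer probe).

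**Figure D3:**
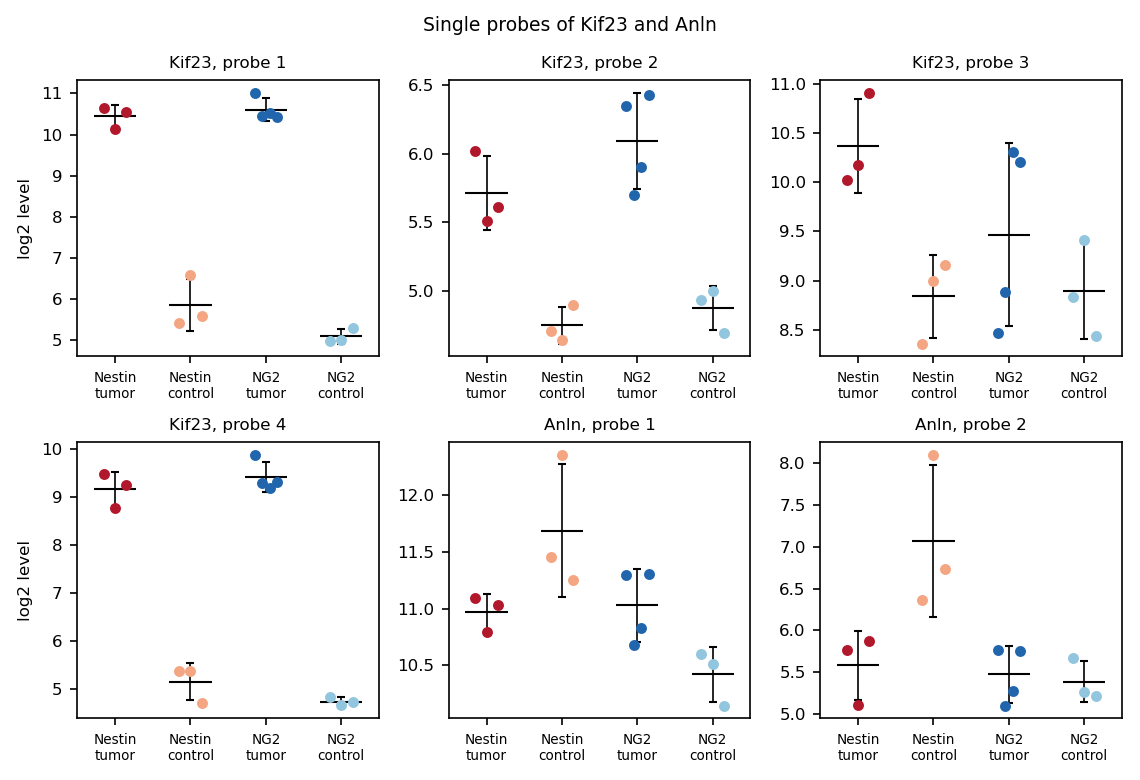
Log2 level (vertical axis, own range in each panel) of single probes of Kif23 and Anln on each array, by group, with tumors left of their controls, the group mean as a line and the SD as a bar. Probe 3 of Kif23 is the brightest, with overlapping NG2 groups, and probes 1, 2 and 4 separate tumors from controls in both models; both probes of Anln are highest in Nestin control 2.

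Of 7 tested spindle and cytokinesis proteins, 6 were higher in both models. Prc1, which bundles the microtubules of the central spindle, had 12.94, 12.62 and 12.96 in Nestin tumors, against 6.95, 7.43 and 5.91 in Nestin controls. In NG2 tumors Prc1 had 13.26, 13.32, 13.17 and 13.79, against 6.61, 6.69 and 6.76 in NG2 controls, and the changes were 6.07 ± 0.31 (adjusted p = 1.24e-08) and 6.69 ± 0.29 (adjusted p = 1.5e-09). Ckap2, a microtubule binder of the spindle, was at least 30.7-fold higher in Nestin tumors and at least 44.5-fold higher in NG2 tumors. Nusap1, which binds spindle microtubules near chromosomes, was higher by 5.23 ± 0.27 in Nestin tumors and at least 40.7-fold in NG2 tumors. Tpx2, the activator of Aurka, was at least 5.47-fold and at least 7.68-fold higher in Nestin and NG2 tumors, and Ect2, which switches on RhoA at the furrow, at least 3.21-fold and at least 5.23-fold.

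Anln (anillin), the scaffold of the contractile ring, was the exception. It had 11.09, 10.79 and 11.03 in Nestin tumors, against 11.46, 12.36 and 11.25 in Nestin controls. In NG2 tumors it had 11.3, 10.68, 10.83 and 11.31, against 10.6, 10.51 and 10.14 in NG2 controls. The tumors of both models overlapped; 2 of 3 Nestin controls lay above all tumors, and all NG2 controls lay below all tumors. Anln was lower in Nestin tumors by the test (-0.72 ± 0.28, adjusted p = 0.047), and the call was lost without any 1 of the 3 Nestin tumors, without Nestin control 1 or Nestin control 2 (-0.39 without Nestin control 2), without NG2 tumor 3 or any NG2 control, and under 7 other settings. In NG2 tumors the change of 0.61 ± 0.26 did not pass (adjusted p = 0.0639), and it passed without NG2 tumor 2 (0.73) or Nestin control 2 (0.61). A dimmer probe changed by -1.49 ± 0.38 in Nestin tumors (adjusted p = 0.00585 among probes) and by 0.09 ± 0.36 in NG2 tumors (adjusted p = 0.85). Anln is also known to be made by myelinating oligodendrocytes. The summed level of 6 of 7 myelin and oligodendrocyte markers was 14100, 18100 and 20000 in Nestin tumors, against 51400, 69300 and 62000 in Nestin controls, highest in the array with the highest Anln. In NG2 tumors that sum was 33200, 22300, 45500 and 28200, against 35900, 42100 and 36900 in NG2 controls, and every measured marker was detected in every group. The part of oligodendrocytes in the Anln values was not tested.

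**Figure D4:**
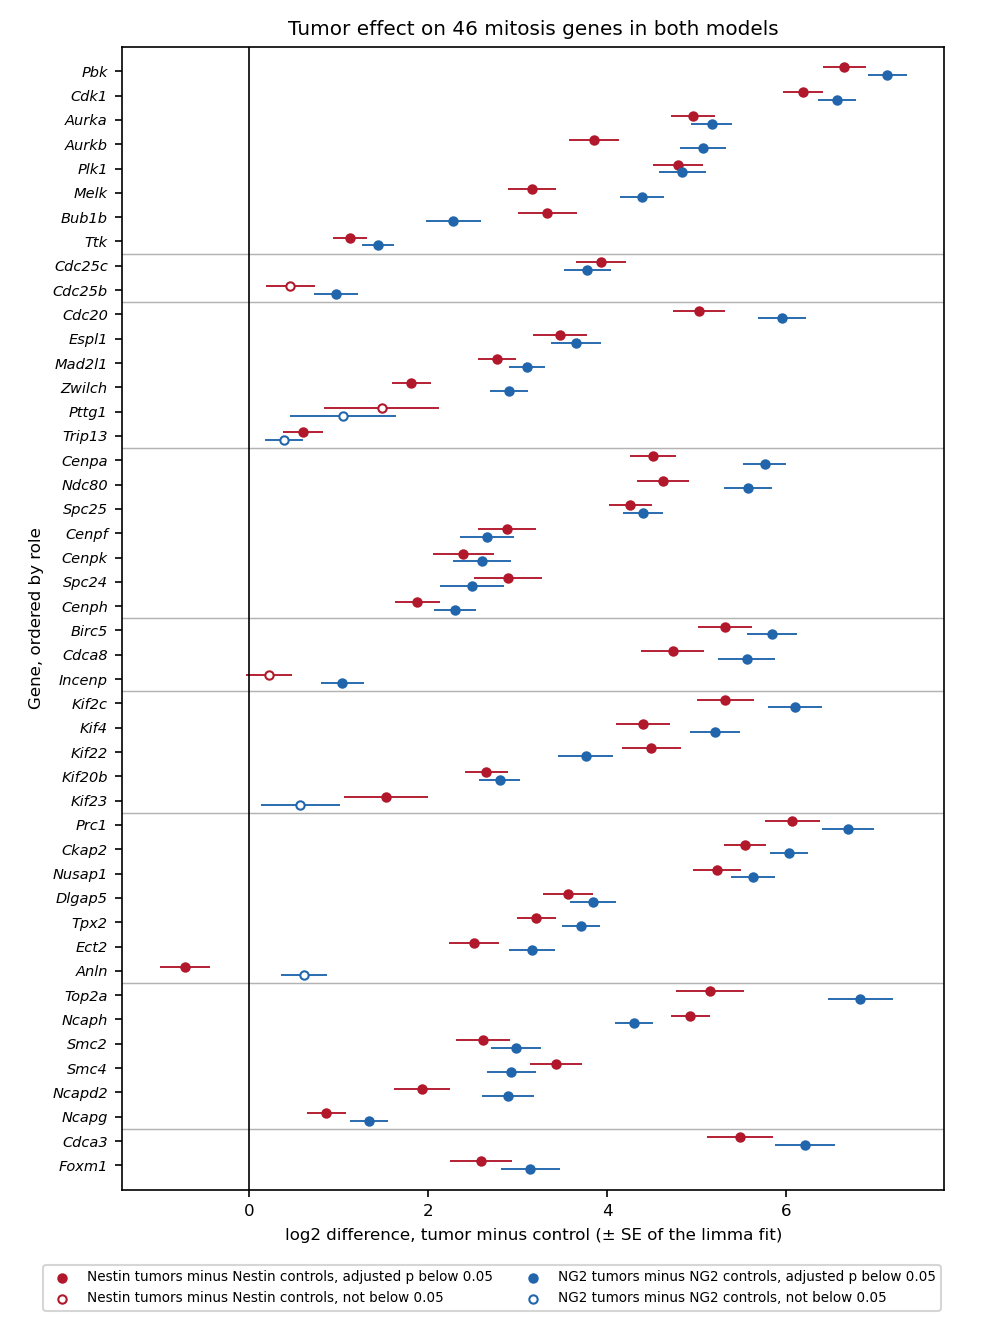
Tumor minus control difference in log2 level (horizontal axis, ± SE of the limma fit) of the 46 tested mitosis genes, grouped by role, with Nestin in red above NG2 in blue for each gene. Filled points have an adjusted p below 0.05; open points are Cdc25b, Pttg1 and Incenp in the Nestin comparison and Pttg1, Trip13, Kif23 and Anln in the NG2 comparison, and Anln lies left of 0 in the Nestin comparison.

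All 6 tested genes of chromosome structure were higher in both models. Top2a, the topoisomerase that untangles sister chromatids, had 11.17, 10.52 and 10.98 in Nestin tumors, against 5.84, 6.37 and 5.02 in Nestin controls. Top2a had 12.37, 11.45, 11.6 and 12.34 in NG2 tumors, against 4.77, 5.68 and 4.89 in NG2 controls. The changes were 5.15 ± 0.38 (adjusted p = 2.59e-07) and 6.83 ± 0.36 (adjusted p = 5.64e-09) in Nestin and NG2 tumors. On a dimmer probe of Top2a they were 2.89 and 3.56. The condensin subunits, which fold chromosomes, differed in size of change. Ncaph had 10.57, 10.19 and 10.37 in Nestin tumors, against 5.22, 5.57 and 5.57 in Nestin controls, and 10.62, 10.65, 10.81 and 10.65 in NG2 tumors, against 6.14, 6.66 and 6.36 in NG2 controls. It was higher by 4.93 ± 0.22 and 4.3 ± 0.21 in Nestin and NG2 tumors. Smc2, an ATPase of condensin, was higher by 2.61 ± 0.3 in Nestin tumors; in NG2 tumors the change was 2.98 ± 0.28. The brightest probe of its partner Smc4 passed in both models but was above background on no control array, and a probe of Smc4 detected in controls changed by 1.05 ± 0.24 in Nestin tumors (adjusted p = 0.00246 among probes) and by 1.18 ± 0.22 in NG2 tumors (adjusted p = 0.000535). Ncapg, a further subunit, was above background on no control array and had 6.06, 5.26 and 5.59 in Nestin tumors, against 4.87, 4.79 and 4.67 in Nestin controls. It had 6.33, 6.13, 6.03 and 5.7 in NG2 tumors, against 4.71, 4.55 and 4.86 in NG2 controls, which gives at least 1.17-fold and at least 1.6-fold higher levels in Nestin and NG2 tumors. Within the first slide the Nestin change of Ncapg (0.83) did not pass (adjusted p = 0.11).

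Foxm1, a transcription factor that acts on promoters of mitosis genes, had 9.2, 8.29 and 8.19 in Nestin tumors, against 6.13, 5.44 and 6.34 in Nestin controls. In NG2 tumors Foxm1 had 9.36, 8.51, 8.87 and 9.56, against 5.99, 5.95 and 5.85 in NG2 controls, with changes of 2.59 ± 0.35 (adjusted p = 5.11e-05) and 3.14 ± 0.33 (adjusted p = 3.28e-06). Cdca3, which promotes entry into mitosis, had 12.05, 11.34 and 11.58 in Nestin tumors, against 6.38, 6.16 and 5.99 in Nestin controls. In NG2 tumors it had 11.85, 13.26, 11.9 and 11.8, against 5.62, 6.44 and 5.91 in NG2 controls, and the changes were 5.48 ± 0.37 and 6.21 ± 0.34. All tumors lay above all controls for both genes.

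The 13 listed genes that were not tested include central ones. Mki67, the proliferation marker Ki-67, Ccnb1 (cyclin B1), Kif11 and Racgap1 had no probe with that name among those annotated. Probes of Bub1, Ccnb2, Ccna2, Ube2c, Cenpe, Kif15 and Hmmr were above background on 0 of the 13 arrays, tumors included, with highest levels of 4.76 to 5.1. Nuf2, the partner of Ndc80, was detected on 2 NG2 tumor arrays (up to 6.44) and Kif20a on 1 (up to 5.58). For these 9 genes the probes give no change between groups.

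Between the tumors of the models, 0 of 46 genes were higher in Nestin tumors than in NG2 tumors (5.54% of all genes), with none at an unadjusted p below 0.05, and 2 were lower (3.45% of all genes), 11 at an unadjusted p below 0.05. Aurkb differed by -1.17 ± 0.26 (adjusted p = 0.0137) and Melk by -1.17 ± 0.25 (adjusted p = 0.0122), with levels given above. Every Nestin tumor lay above every NG2 tumor for 0 genes (10% of all genes) and below for 10 (8.64% of all genes), which were Aurkb, Melk, Pbk, Zwilch, Tpx2, Prc1, Ckap2, Top2a, Ncapd2 and Ncaph. The median difference over the 46 genes was -0.41, beside -0.01 over all genes; it was -0.22 without Nestin tumor 2 and -0.24 without background correction. The Aurkb call was lost without Nestin tumor 2 (-1.0). No slide held tumors of both models, and with slide as a block neither gene passed (-1.15 and -1.1), nor did either in a fit of the tumor groups alone. Neuron markers were higher and oligodendrocyte progenitor markers lower in Nestin than in NG2 tumors by the sums given above. By limma, 5 of 7 neuron markers and 2 of 8 astrocyte and neural stem cell markers were called higher, and 2 of 6 progenitor markers lower. Of 6 oligodendrocyte and myelin markers 1 was called higher and 2 lower. These calls were also lost with slide as a block, under which 0 of 11927 genes passed in either direction. The part of these cells in the difference was not tested.

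Nestin tumor 2 was the lowest of the 7 tumors for 28 of the 46 genes, with a median deviation of -0.53 from the tumor mean, and Nestin tumor 3 for 7. NG2 tumor 4 was highest for 13 genes and Nestin tumor 1 for 11. Nestin tumor 2 also had the highest sums of astrocyte and neural stem cell markers (78200) and of microglia and macrophage markers (10800) of the 13 arrays, whose part in its low values was not tested. The SD of a gene within a group had a median of 0.364 in Nestin tumors, against 0.222 in Nestin controls, and of 0.324 in NG2 tumors, against 0.152 in NG2 controls. Over all genes these medians were 0.304 and 0.223 in the Nestin groups, and 0.352 and 0.277 in the NG2 groups. In each control group the probe used was above background on no array for 21 of the 46 genes, whose levels lie near the floor there.

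Between the controls, 2 of 46 genes were higher in Nestin than in NG2 controls (1.69% of all genes) and 2 lower (1.78%). Higher were Cenpa (1.29 ± 0.26, adjusted p = 0.0118) and Anln (1.27 ± 0.28, adjusted p = 0.0202). Lower were Bub1b (-1.38 ± 0.33, adjusted p = 0.0372), which encodes a checkpoint kinase, and Ncaph (-0.94 ± 0.22, adjusted p = 0.033). Bub1b had 7.04, 7.42 and 6.47 in Nestin controls, against 8.48, 7.64 and 8.95 in NG2 controls, while its levels were 10.28, 10.05 and 10.58 in Nestin tumors and 10.81, 10.63, 10.83 and 10.26 in NG2 tumors. Against their controls, Bub1b was higher by 3.33 ± 0.33 in Nestin tumors; in NG2 tumors the change was 2.28 ± 0.31. On dimmer probes the means in Nestin and NG2 controls lay closer, at 5.91 and 6.5 for Bub1b and at 5.74 and 6.08 for Ncaph. The brightest Ncaph probe was above background on only 2 of the Nestin controls. Without background correction the differences were -0.82 for Bub1b (limma adjusted p = 0.0822) and -0.3 for Ncaph (adjusted p = 0.425). Every Nestin control lay above every NG2 control for 6 genes (13.4% of all genes) and below for 5 (11.1%). With slide as a block none of these 4 calls passed (adjusted p of 0.176 for Cenpa, 0.285 for Anln, 0.111 for Bub1b and 0.469 for Ncaph). None held on leaving out every single control: Cenpa was lost without Nestin control 1, NG2 control 1 or NG2 control 3 (1.16 to 1.18), Anln without Nestin control 2 (0.94), NG2 control 2 or NG2 control 3, Bub1b without Nestin control 1 or 3 or NG2 control 1 or 3 (-1.41 to -1.08), and Ncaph without any 1 of the other controls save NG2 control 1 (-0.99 to -0.8).

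The tumor effect itself, Nestin minus NG2, passed for 0 of 46 genes in either direction (2.46% of all genes higher, 1.33% lower), with 1 higher and 10 lower at an unadjusted p below 0.05. Values at an unadjusted p below 0.05 included those of Top2a (-1.68 ± 0.53, adjusted p = 0.0935), Anln (-1.34 ± 0.38, adjusted p = 0.0666), Cenpa (-1.25 ± 0.36, adjusted p = 0.0666), Melk (-1.24 ± 0.37, adjusted p = 0.0821) and Aurkb (-1.22 ± 0.38, adjusted p = 0.0953). The 1 higher value was that of Bub1b (1.05 ± 0.46, adjusted p = 0.232), whose level was higher in NG2 controls than in Nestin controls. Anln and Melk passed without NG2 tumor 2 (-1.45 and -1.37), Cenpa without NG2 control 2 (-1.5) and Zwilch without Nestin tumor 1 (-1.26, against -1.09 with all arrays). The brightest probe of Zwilch was undetected in NG2 controls. Aurkb and Melk were undetected in both control groups. This contrast shares its arrays with the comparisons above.

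**Figure D5:**
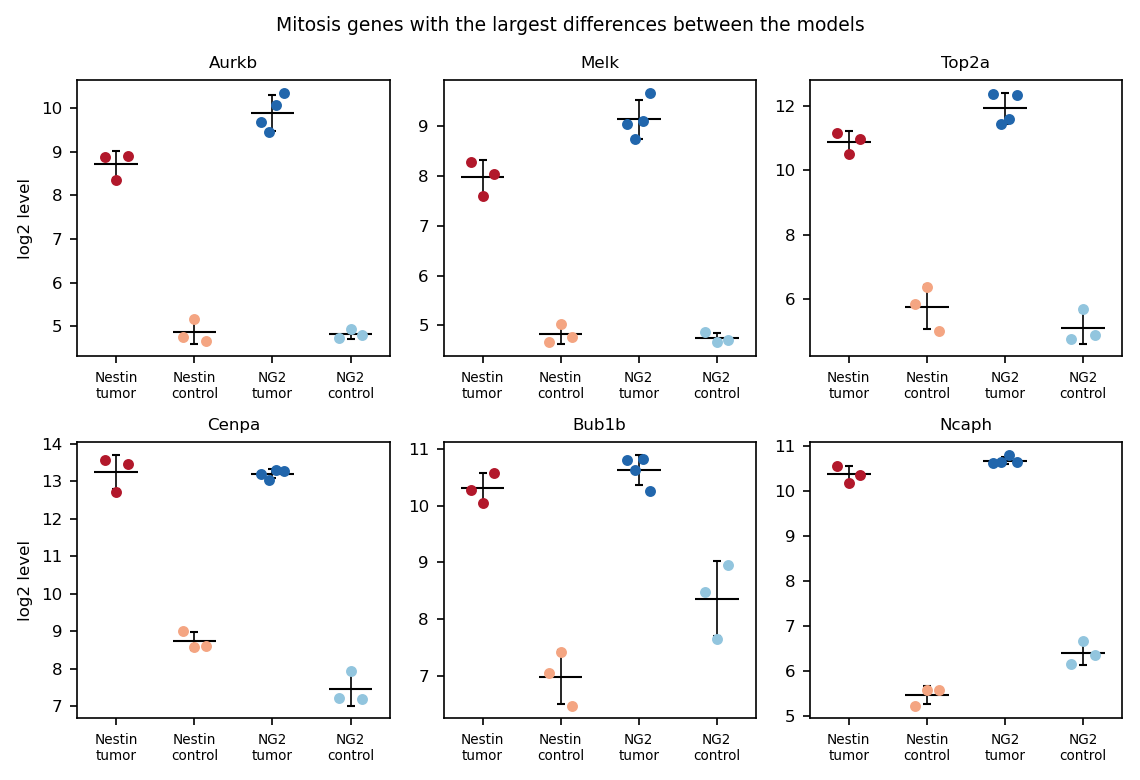
Log2 level (vertical axis, own range in each panel) of 6 mitosis genes on each array, by group, with tumors left of their controls, the group mean as a line and the SD as a bar. Aurkb, Melk and Top2a are lower in all Nestin tumors than in all NG2 tumors; Cenpa is higher, and Bub1b and Ncaph lower, in all Nestin controls than in all NG2 controls.

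Other genes of the same machinery, from lists chosen with earlier results known, were counted beside the 46, to be read against the 24.4% of all genes called higher and 21.9% called lower in Nestin tumors, and 26.6% and 24.1% in NG2 tumors. Genes undetected in controls pass the filter only through tumors, so genes detected on at least 3 control arrays were also counted alone, a choice made after seeing the data. Over all genes so detected, 23% were called higher in Nestin tumors and 24.7% in NG2 tumors. Of 27 other kinetochore and checkpoint genes, 22 were higher and 1 lower in Nestin tumors, and 23 higher and 1 lower in NG2 tumors, with median changes of 2.22 and 2.65 (2.03 and 2.65 at the bounds). Of the 17 of these detected in controls, 12 were higher in Nestin tumors and 13 in NG2 tumors. Spdl1, which brings dynein to kinetochores, was at least 30.5-fold higher in Nestin tumors, and Sgo1 (shugoshin), which protects centromeric cohesin, at least 22.5-fold higher in NG2 tumors and at least 18.4-fold in Nestin tumors. Zwint, which links outer kinetochore complexes, fell by 0.85 in Nestin tumors (adjusted p = 0.0028) and by 1.09 in NG2 tumors (adjusted p = 0.000235). Of 22 other spindle and kinesin genes, 17 were higher in Nestin tumors and 19 in NG2 tumors, and 1 was lower in each, with median changes of 1.76 and 2.24 (1.38 and 1.71 at the bounds). Of the 11 of these detected in controls, 6 were higher in Nestin tumors and 8 in NG2 tumors. Troap was at least 24.6-fold higher in Nestin tumors and at least 32.8-fold in NG2 tumors, and Clasp2, a microtubule-stabilizing protein, fell by 1.28 and by 0.84 in Nestin and NG2 tumors.

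Median changes were smaller in the other lists, and several of their shares were near those of all genes. Among genes detected in controls, 3 and 5 of 11 of the anaphase-promoting complex were higher in Nestin and NG2 tumors. For cohesin these were 5 and 6 of 10, for centrioles 3 and 3 of 8, and for cytokinesis 3 and 6 of 11. For mitotic entry they were 2 and 2 of 7, near the shares of all genes so detected, and for MuvB 4 and 4 of 9. Counts of lower genes were those of the whole lists. Of 12 genes of the anaphase-promoting complex, 3 were higher and 1 lower in Nestin tumors, and 5 higher and 1 lower in NG2 tumors, with medians of 0.34 and 0.46; the Nestin share is close to the 24.4% of all genes. Ube2s, its ubiquitin-conjugating enzyme, was higher by 1.57 ± 0.27 in Nestin tumors, and Cdc27, a subunit, by 1.85 ± 0.34 in NG2 tumors, while Anapc2 fell by 0.76 and by 1.16 in Nestin and NG2 tumors. Cdc27 was also lower in Nestin than in NG2 tumors (-1.96 ± 0.34, adjusted p = 0.00405), a call that is lost with slide as a block, as are all calls between the tumor groups. Of 11 cohesin genes, 6 were higher in Nestin tumors and 7 in NG2 tumors and 0 lower, with medians of 0.83 and 0.75. Esco2, which acetylates cohesin in S phase, was at least 10-fold higher in Nestin tumors and at least 11.3-fold in NG2 tumors. Of 9 centriole and centrosome genes, 4 were higher and 1 lower in each model, with medians of 0.63 and 0.83. Plk4, the kinase of centriole duplication, was at least 3.4-fold and at least 4.39-fold higher in Nestin and NG2 tumors, and Ccp110 fell by 1.1 and by 0.79.

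Of 13 cytokinesis and abscission genes, 4 were higher and 3 lower in Nestin tumors, and 7 higher and 2 lower in NG2 tumors, with medians of 0.55 and 0.82; the Nestin shares are near the 24.4% and 21.9% of all genes. Septin2 was higher by 1.54 ± 0.17 in Nestin tumors and Septin9 by 2.21 ± 0.24 in NG2 tumors. Myh10, a non-muscle myosin, fell by 2.03 in Nestin tumors, and Cit, the citron kinase that is also made in neurons, fell by 2.16 in NG2 tumors. Of 9 genes that control mitotic entry, 4 were higher in each model, and 3 were lower in Nestin tumors and 2 in NG2 tumors, with medians of 0.25 and 0.14 (0.16 and 0.14 at the bounds). Cdkn3, a phosphatase of Cdk proteins, was higher by 4.0 ± 0.33 and 4.46 ± 0.31 in Nestin and NG2 tumors, and Ensa, an inhibitor of the phosphatase PP2A, fell by 2.06 and by 1.72. Of 12 MuvB, B-Myb and NF-Y genes, 6 were higher and 0 lower in each model, with medians of 0.85 and 1.05 (0.85 and 0.95 at the bounds). Rbl1 (p107), a partner of MuvB in resting cells, was higher by 2.98 ± 0.25 in NG2 tumors (adjusted p = 3.78e-07); it also passed in Nestin tumors, where the probe used was above background on 0 of the 3 control arrays. Mybl2 (B-Myb), the partner of MuvB in dividing cells, was at least 2.55-fold and at least 1.99-fold higher.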

How the data were processed

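RNA of 13 mouse tumor and control brain samples was labelled with biotin and hybridised to Illumina arrays, per the labels. The authors deposited non-normalized intensity values of 45281 probes with a detection p-value for each, per the file headers; the sources used here do not say whether background had been subtracted. The processed table they deposited holds 38563 probes, taken as log2 values from their range, with medians of 5.286 to 5.306 per array; its scale, centring and method are not stated. Set against the intensities, every column had a correlation of at least 0.99998 with the array of its sample and at most 0.9883 with any other; it served as an alternative.

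Intensities were corrected, quantile normalized and turned to log2 with neqc (limma 3.58.1, R 4.3.3, offset 16). Of 23904 probes with detection p below 0.05 on at least 3 arrays, the brightest per gene was used. Of the probes, 32093 had 1 symbol in the platform table, 16 several and 13172 none there; 32035 matched RefSeq by Entrez number and 0 symbols changed. One linear model of the 4 group means took in all 13 arrays (limma, 9 residual degrees of freedom, prior 4.67, intensity trend), with Benjamini-Hochberg adjusted p-values over all 11927 genes per comparison. SE is that of the moderated fit. Bounds ("at least") set the tumor mean against the lowest level detected on each control array, or the gene's own level there if higher. The adjusted p printed beside a bound is that of the fit, and the bound itself was not tested. The number of arrays limits the precision. Gene values per array were given for the largest and smallest change of each role, for genes that passed between models or did not pass against controls, and for a few fixed genes. The fit was tested on simulated data. The members, the gene lists and the genes whose promoters are shown were chosen with earlier results of these data known. Slides were read from the array identifiers. Alternatives are in the closing section. Counts and figures used Python 3.11.15, pandas 2.3.3 and matplotlib 3.10.9.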

Additional observations from a re-analysis of the deposited data

Results flagged for a closer look

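Of the 46 tested mitosis genes, 5 had 1 NG2 tumor array far from the other 3 by Dixon's gap criterion, which chance meets in about 1 of 20 groups. Groups of 3 arrays were not tested. Cdca3 was 13.26 in NG2 tumor 2, and the nearest of the other NG2 tumors had 11.9. Plk1 was 9.97 in NG2 tumor 2, below the nearest at 10.57. Zwilch was 7.79 in the same tumor, below the nearest at 7.91. In NG2 tumor 3, Cdc25c was 9.79, above the nearest at 9.03, and Ncaph was 10.81, above the nearest at 10.65. All 5 values lay above every NG2 control.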

How the results depend on the processing

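Apart from the main values, 26 alternatives were run, 13 of which left out 1 array. Of 2554 values of single mitosis genes under them, 2467 kept their side of the threshold, 62 were no longer past it, 25 were newly past it, and 0 were past it with the opposite sign. Most of these are tumor against control values. Values between models, and of the difference of effects, entered only where past the threshold in the main or the alternative fit. These totals therefore say little about how stable the calls between models are. Counts of higher genes stayed within 40 to 42 (Nestin tumors against controls) and 42 to 43 (NG2) without 1 array. The single lower gene of the Nestin comparison, Anln, became 0 with scaling to the median, no filter on dim probes, slide as a block, the replicate block, no intensity trend, a fit of those groups only, and within 1 slide, and the count ran from 0 to 1 without 1 array. Between tumors, the 2 lower genes became 4 without background correction and with the mean of the probes, 0 with slide as a block or those groups only, and 1 with the replicate block, and ran from 1 to 3 without 1 array. Between controls, the 2 higher genes became 0 with slide as a block and ran from 0 to 2; the 2 lower genes became 1 with an offset of 50 or cyclic loess, and 0 without background correction, with scaling to the median, the mean of the probes, slide as a block or the replicate block, and ran from 0 to 2. For the difference of tumor effects, 0 lower genes became 1 without the intensity trend and ran from 0 to 2. The cause was not tested. Sample titles letter the NG2 tumors in another order than the replicate numbers used here, and pairing by title was not tested. By the numbers used, no pairing was seen: deviations of same-numbered arrays correlated from -0.154 to 0.062. Among counts of mitosis genes the replicate block moved no other by over 1.5 times. Over all genes it gave 238 in place of 411 lower genes between tumors and 91 in place of 159 lower genes for the difference of effects. Slide as a block gave 0 higher and 0 lower genes between tumors in place of 661 and 411, 23 and 62 between controls in place of 202 and 212, and 132 and 52 for the difference of effects in place of 294 and 159; a fit of those groups only gave 131 and 35 between tumors and 484 and 468 between controls, and no filter gave 266 lower genes between tumors. The size of change depends on background correction: without it the median change was 1.7 in Nestin tumors and 2.07 in NG2 tumors, and with an offset of 50 it was 2.6 and 2.85. Scaling to the median moved the median of all genes to 0.451 and 0.467, the counts of higher genes to 4427 and 4862 and of lower genes to 1642 and 1914 (2905, 3167, 2615 and 2876 with quantile normalization), and the share of higher among called genes to 72.9% and 71.8%, against 52.6% and 52.4%; the medians of the mitosis genes were then 3.56 and 3.84. With cyclic loess that share was 69.1% between tumors and 73.6% for the difference of effects, against 61.7% and 64.9%. Scaling also gave 132 higher genes between controls and 101 lower genes for the difference of effects, and 1822 genes were higher within the first slide in Nestin tumors. Signal near background limits the genes undetected in controls to bounds.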
